A study of Mus musculus with 2 samples.

Results

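The Krt1/Krt10-rich cells are cells of the mouse anorectal epithelium chosen by their unique molecular identifiers (UMIs, 1 for each RNA molecule counted). They held 10 or more UMIs summed over Krt1 and Krt10, keratin genes of differentiated squamous cells. The name follows these keratins, and the cells varied in other genes of differentiation. Members were chosen by these UMIs among cells with 1 deposited name in each library. In the normal library the name was Anal Canal, and 128 of its 432 cells passed. The name in the wounded library was Basal, of which 198 of 573 cells passed, so the wounded name goes against the keratins these cells carried. Together they were 326 of the 5086 deposited cells, of which 939 were normal and 4147 wounded. Each set was compared, within its own library, with the cells of the same name that held 0 to 2 such UMIs, 210 normal and 274 wounded cells, called Krt1/Krt10-low cells here. The 94 and 101 cells with 3 to 9 UMIs were placed on neither side. At the edge of the rule, 3 normal and 3 wounded cells held exactly 10 UMIs, and 7 and 11 cells held 9. Since UMIs of these cells chose the groups, every difference between rich and low cells is a description of the cells and none was tested.

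A stratified squamous epithelium is renewed from a basal layer, in which Krt5 and Krt14 form the keratin network and integrins and hemidesmosomes hold the cells to the basement membrane. Cells that leave this layer switch to Krt1 and Krt10 in the spinous layer, build more desmosomes, and are known to do so under Notch signalling. Where the surface keratinizes, cells of the granular layer add loricrin, filaggrin and lipids, which make the cornified envelope and the water barrier.

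The study asked how the transition zone between anal canal and rectum is maintained and repaired. Anorectal epithelial cells were sorted by flow cytometry, by a strategy based on Epcam, from pools of at least 5 K17CreERT2;R26RGFP mice of both sexes on the C57/BL6J strain. In these mice, Cre driven by the Krt17 promoter and activated by tamoxifen switches on the reporter ZsGreen1 from the Rosa26 locus. The normal library came from unwounded mice and the wounded library from mice taken 1 week after a wound with EDTA. Both groups carried both transgenes and received 2 injections of tamoxifen. With 1 pooled library for each condition the spread between mice is unknown, and differences are given without tests. Intervals at 95% (exact binomial for ratios, exact Poisson for levels, Clopper-Pearson for shares) cover counting error only. The libraries shared 1 cell barcode in all, and none among the deposited cells.

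Krt1 (ENSMUSG00000046834, GRCm38 chromosome 15, 101845426 to 101850794, minus strand) and Krt10 (ENSMUSG00000019761, chromosome 11, 99385254 to 99389364, minus strand) encode the partners of the keratin filament of the spinous layer. Krt1 stood at 5511 UMIs for each 1000000 UMIs of the cells (CPM) in the normal rich cells, and at 5474.5 CPM in the wounded ones. Krt10 stood at 5474 and 4514 CPM. In the low cells Krt1 was at 51.2 and 49.4 CPM and Krt10 at 49.2 and 32.2 CPM. These levels restate the rule. Both genes together took 1.10% of all UMIs of the normal rich cells and 0.999% of those of the wounded rich cells. The study names Gpc3 beside Krt10 for its differentiated anal canal cells. Gpc3 stood at 63.1 CPM in rich and 81.1 in low cells of the normal library, and at 76.7 and 43.7 in the wounded one.

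Among themselves the rich cells ranged widely. A normal rich cell held from 0 to 654 UMIs of Krt1 (median 26) and from 0 to 683 of Krt10 (median 29). A wounded rich cell held from 0 to 490 (median 36.5) and from 0 to 598 (median 23). Krt1 exceeded Krt10 in 72 of the 128 normal and 132 of the 198 wounded cells. Krt1 was missing from 3 rich cells in each library, and Krt10 from 10 and 16. Across the rich cells the log2 levels of both genes had a Pearson r of 0.57 in the normal and 0.50 in the wounded library. It is given as a description, since the points are cells of 1 library and were chosen on the sum of both genes.

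**Figure D1:**
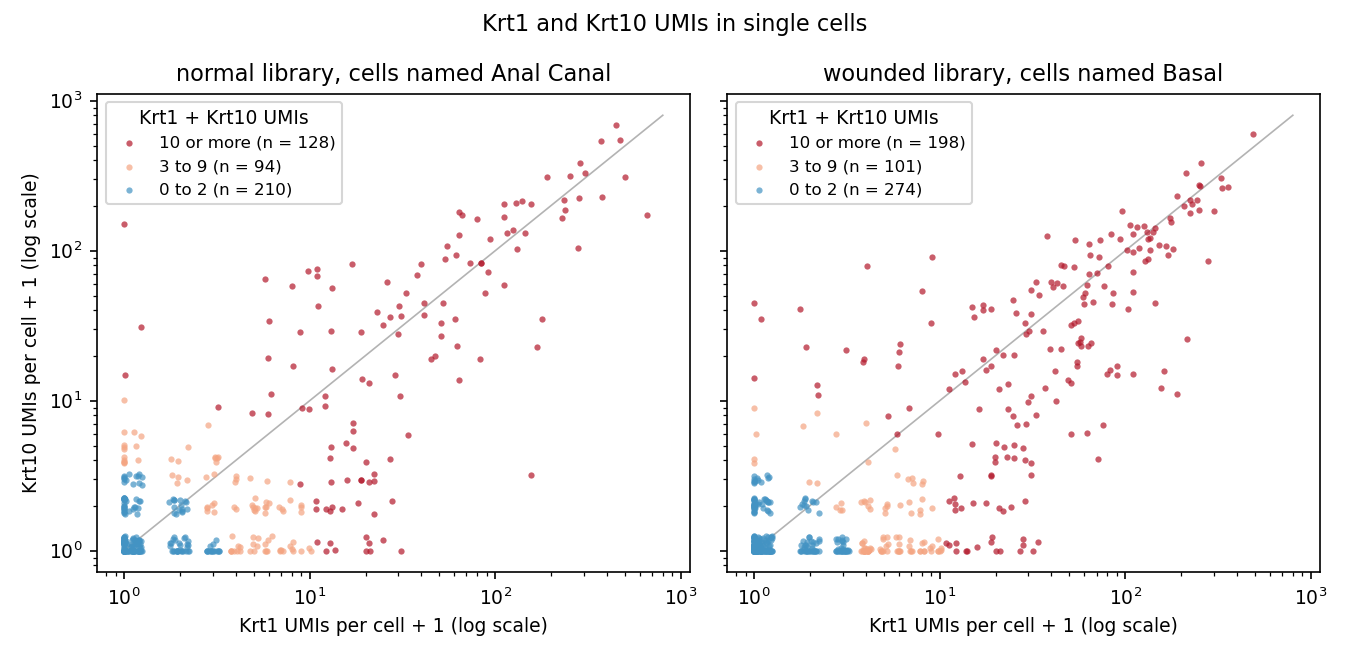
UMIs of Krt1 (horizontal, log scale, plus 1) against UMIs of Krt10 (vertical, log scale, plus 1) in single cells, with a small horizontal and vertical scatter added to part equal counts and the grey line at equal counts. Red cells hold 10 or more UMIs of both genes together, orange cells 3 to 9 and blue cells 0 to 2. Cells with many Krt1 and few Krt10 UMIs fill the lower edge of the red group in both libraries.

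The other deposited names held few such cells. In the normal library, 19 of 187 cells named Suprabasal had 10 or more UMIs of both genes (10.2%), but 0 of 257 cells named Basal, which allows a share of up to 1.17% at 3 cells of the total, or 1.43% by the exact interval. In the wounded library, the shares were 6.65% of 316 Hybrid cells, 2.62% of 1032 Suprabasal cells, 0.477% of 838 Wound_Stress cells and 0.202% of 991 Regeneration cells. The rectum, a simple epithelium that should lack both genes, had 0 of 63 normal cells (up to 4.76% at 3 cells of the total, or 5.69% by the exact interval) and 4 of 397 wounded cells (1.01%, interval 0.275 to 2.56%). The names differed in depth, with a median of 2390 UMIs in Hybrid and 9075 in wounded Basal cells, and cells were not thinned here. The shares of 29.6% (25.4 to 34.2) in the Anal Canal cells and 34.6% (30.7 to 38.6) in the wounded Basal cells restate the rule. They refer to differently named populations of 2 libraries and were not set against each other.

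**Figure D2:**
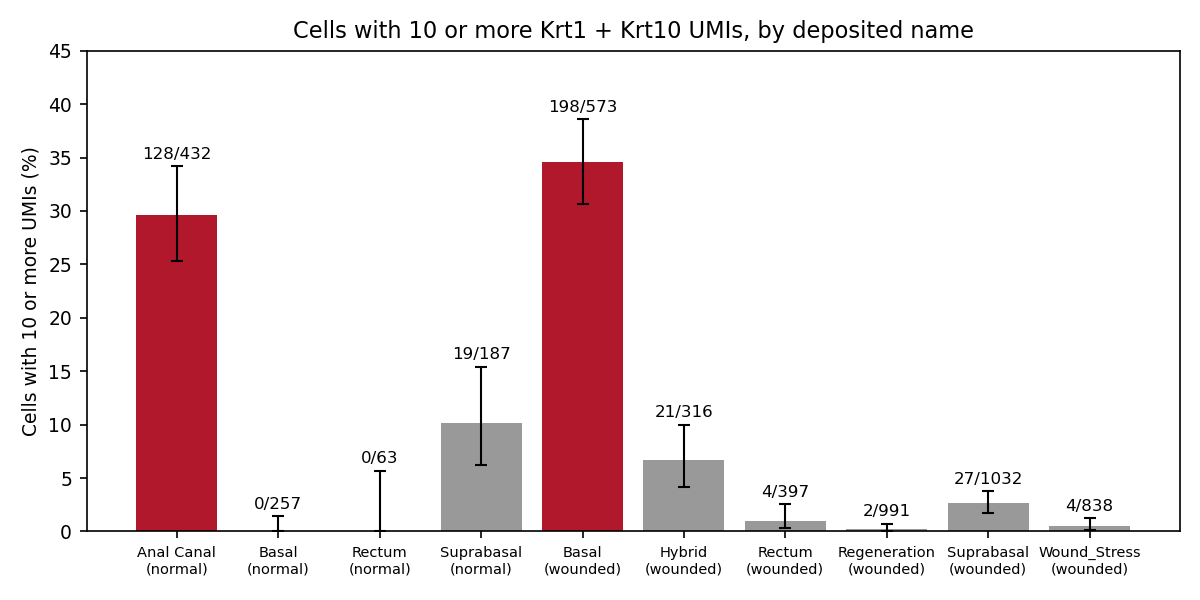
Share of cells with 10 or more UMIs of Krt1 and Krt10 together (vertical, percent) for each deposited name and library (horizontal). Bars are shares, lines exact 95% intervals for counting error, and numbers above are cells passed over cells in all. The red bars, 29.6% and 34.6%, are the names from which the rich cells were taken.

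The 19 and 27 rich cells named Suprabasal differed from the Krt1/Krt10-rich cells in some genes and shared others. Cst6, an epithelial cystatin, stood at 65785 and 80069 CPM in them, against 214 in the normal and 162 in the wounded Krt1/Krt10-rich cells. Krt79, a keratin of the upper hair follicle, stood at 6756 and 5399 CPM against 72.8 and 74.3. Krt17 was at 9634 and 7852 CPM, against 330.3 and 116. Mt4 was lower in them, at 96.3 and 584 CPM, against 1229 and 1744. Krtdap and Calm4 had more UMIs per total in them, with Krtdap at 11900 and 10363 CPM against 6327 and 5835, and Calm4 at 6281 and 5028 against 2633 and 3418. Serpinb3a was at 270.4 and 199.5 CPM, against 265 and 173. Krt1 and Krt10 therefore also marked a small set of Cst6-rich cells under another name, which the rule left out. It also left out 21 wounded Hybrid cells with 10 or more UMIs, at a median of 2585 UMIs in all. These held Cst6 at 292, Serpinb12 at 140, Serpinb3a at 117 and Gpc3 at 58.4 CPM. The wounded Krt1/Krt10-rich cells held 162, 122, 173 and 76.7. Krt14 and Mt4 were lower in the Hybrid cells, at 1704 and 350 CPM against 7938 and 1744, and Krt79 was higher, at 689 against 74.3.

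Rich cells held more UMIs in all than low cells, which the rule itself favours. Their median was 12317 UMIs against 5620.5 in the normal library, and 12593 against 7308 in the wounded library. Median mitochondrial shares were 3.90% against 4.99%, and 8.14% against 8.91%. A deeper cell passes a minimum of 10 UMIs more easily, so levels were compared in CPM, and shares of cells with a UMI after each cell was thinned to 2000 UMIs. That left out 4 of the normal rich cells and none of the wounded ones, and 29 and 9 low cells.

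The low cells were of more than 1 kind. Some of them held UMIs of Ltf, Ppbp, Psca or Cxcl5, which were among the genes most lower in rich cells, and these 4 genes were picked after their values were seen. A UMI of any of them occurred in 41 of 210 normal low cells and 48 of 274 wounded low cells. It occurred in 14 of 128 and 7 of 198 rich cells. The low cells with such a UMI had Krt13 and Krt4, keratins of mucosal suprabasal layers, at 2734 and 2436 CPM in the normal library. In the other low cells Krt13 stood at 258 and Krt4 at 281 CPM. Wounded cells with such a UMI had Krt13 at 6487 and Krt4 at 2039 CPM, against 416 and 108 in the other low cells. Cnfn, a protein of the cornified envelope, was at 1352 and 1691 CPM in the cells with such a UMI and at 0.943 and 0.547 in the others. The low group thus held cells that differed from each other in these genes, and values against the 169 and 226 low cells without the 4 genes are given further on for many of the genes whose direction or call this changes. Those values leave out low cells only, while the 14 and 7 rich cells with such a UMI were kept. They therefore do not show that rich cells were higher than low cells as a whole.

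**Figure D3:**
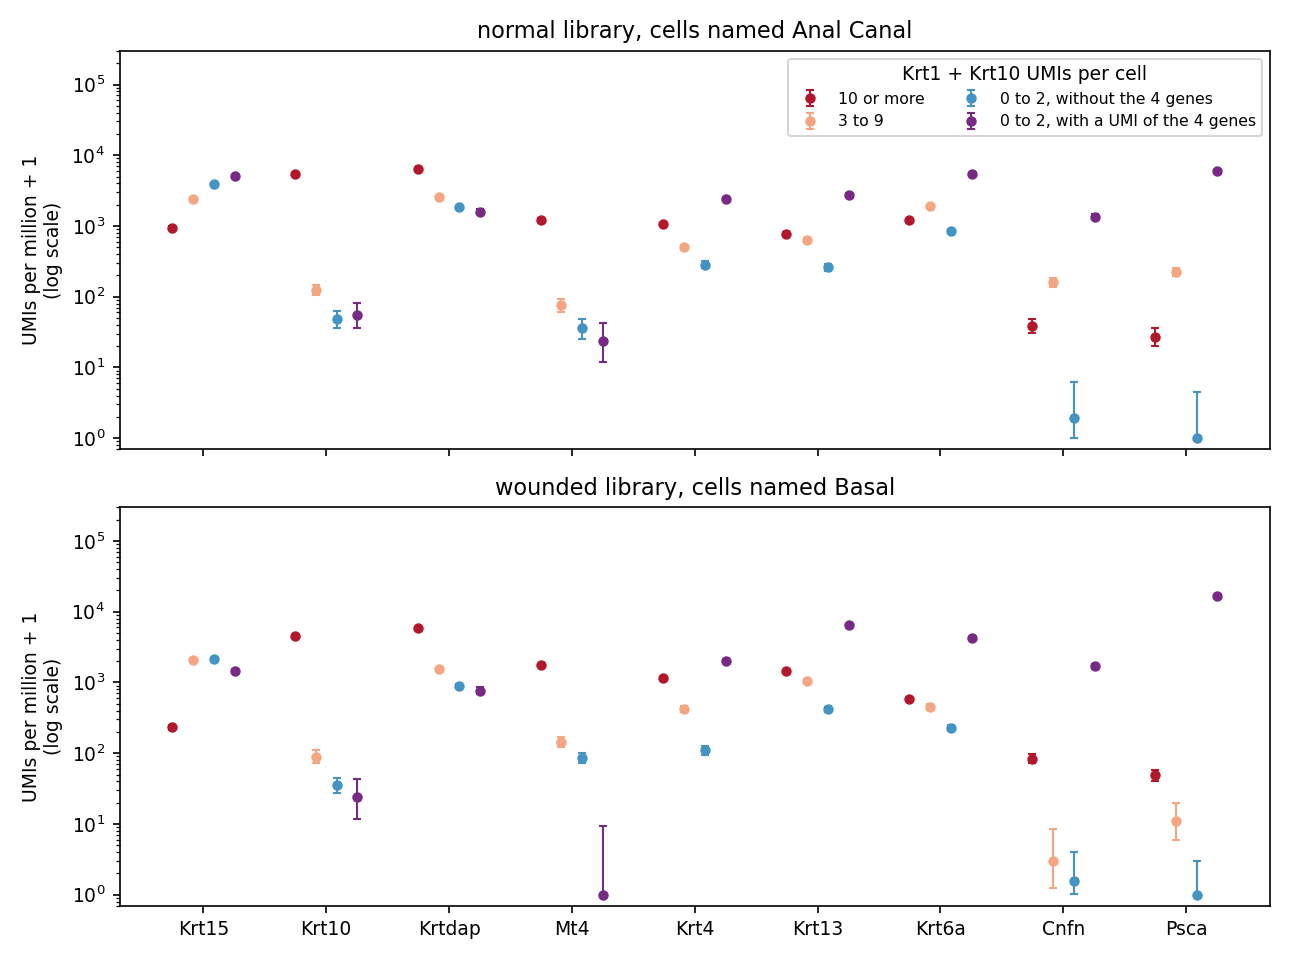
Level of 9 genes (vertical, CPM plus 1, log scale) in 4 groups of cells of each library, with exact 95% Poisson intervals for counting error. Rich cells are red, cells with 3 to 9 UMIs orange, low cells without a UMI of Ltf, Ppbp, Psca and Cxcl5 blue and low cells with one purple. Rich cells are highest for Krt10, Krtdap and Mt4, and the purple cells for Krt4, Krt13, Krt6a, Cnfn and Psca.

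Of 3591 genes with 100 or more UMIs in rich and low normal cells together, 75 (2.09%) were at least 2-fold higher in the rich cells, a log2 ratio of 1 or more. A further 169 (4.71%) were at least 2-fold lower. Of 4765 genes in the wounded library, 111 (2.33%) were higher and 352 (7.39%) lower by this rule, which is meant wherever a gene is called higher or lower below. The median log2 ratio of all these genes was -0.05 and -0.09. These shares are the background for the counts in the gene lists below. Where few genes of a list were compared, 1 call can pass them, so such counts are descriptive only. In 3410 genes measured in both libraries, 55 were higher in both, which is 80.9% of the 68 called in the normal and 68.8% of the 80 called in the wounded library. These counts of higher genes include Krt1 and Krt10, whose ratios the rule set. In the same 3410 genes 119 were lower in both, 79.9% of 149 and 50.2% of 237. Only 1 of the 3410 genes, Sprr2f, was called in opposite directions.

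Apart from the genes of the rule, the largest ratios belonged to serpins and a metallothionein. Serpinb3a, an inhibitor of serine and cysteine proteases (chromosome 1, 107045587 to 107052303, minus strand), had 462 UMIs in normal rich cells and 1 in low cells, a log2 ratio of 8.64 (6.15 to 13.94). In the wounded library it had 431 UMIs against 0, which at a floor of 3 UMIs in the low group is a log2 ratio of at least 7.03. Serpinb12, of the same family (chromosome 1, 106934449 to 106957080, plus strand), followed with 6.96 (4.46 to 12.27) and 7.12 (5.25 to 10.17). Both genes were thus close to absent from cells of the same name with few Krt1 and Krt10 UMIs. Yet they marked few rich cells: 1 cell held 34.6% of the normal Serpinb3a UMIs, and after thinning 11.3% of the normal and 16.7% of the wounded rich cells had a UMI.

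Mt4, the metallothionein of stratified epithelia (chromosome 8, 94137197 to 94139031, plus strand), stood at 1229 CPM in normal rich cells and 31.3 in low cells, a log2 ratio of 5.30 (4.88 to 5.75). In the wounded library it stood at 1744 and 68.0 CPM, a ratio of 4.68 (4.45 to 4.92). Fabp5, the epidermal fatty acid binding protein (chromosome 3, 10012548 to 10016607, plus strand), was higher at far larger levels. It stood at 7027 against 714 CPM in the normal library (3.30, 3.21 to 3.39) and at 14521 against 1901 in the wounded library (2.93, 2.89 to 2.98). A UMI of Fabp5 was found after thinning in 94.4% of normal and 99.5% of wounded rich cells, against 54.1% and 72.1% of low cells. Mt4 was far less evenly spread, with 28.2% and 35.9% of rich cells against 4.42% and 6.04% of low cells.

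Them5, a thioesterase, Teddm3 and Gm94 also had large ratios in both libraries. Them5 had log2 ratios of 3.31 and 3.21, Teddm3 of 3.25 and 3.33, and Gm94 of 3.05 and 3.75. Calm4, a calmodulin-like protein of differentiating keratinocytes, had 2.58 in the normal and 4.29 in the wounded library. Its normal low level of 439.6 CPM included the 41 cells described above, in which it stood at 1122, and without them the ratio was 4.10. Dsc1, the desmocollin of upper layers, had 90 against 5 UMIs in the wounded library (4.03, 2.76 to 5.69) and 25 against 0 in the normal one, both below the minimum of 100. Cpxm2, Pcp4 and the thrombomodulin gene Thbd were also among the 10 highest of the wounded library, with 3.40, 3.38 and 3.31, and Pcp4 rested on 12 rich cells. Defb6, a beta-defensin, reached 3.23 in the normal library, but 95.6% of its UMIs lay in 1 rich cell, without which and without the top low cell its ratio was -0.83.

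The promoters of Krt10 and of 3 genes among the highest ratios in both libraries are shown, picked because they hold a match to one of the motifs searched. Each line gives 130 bases of GRCm38.p6 before the start that RefSeq annotates, 5′ to 3′ on the strand of the gene, with capitals on the TATAAA motif or the TGANTCA motif of AP-1, both searched on both strands. Krt1 has no entry in the table of promoters used.
Krt10, chr11:99389365-99389494, minus strand: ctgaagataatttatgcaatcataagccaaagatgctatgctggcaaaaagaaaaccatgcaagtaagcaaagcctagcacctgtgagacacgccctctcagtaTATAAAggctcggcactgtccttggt
Mt4, chr8:94137074-94137203, plus strand: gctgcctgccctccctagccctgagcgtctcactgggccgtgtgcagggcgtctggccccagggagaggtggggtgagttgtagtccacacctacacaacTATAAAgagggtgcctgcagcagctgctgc
Serpinb3a, chr1:107052304-107052433, minus strand: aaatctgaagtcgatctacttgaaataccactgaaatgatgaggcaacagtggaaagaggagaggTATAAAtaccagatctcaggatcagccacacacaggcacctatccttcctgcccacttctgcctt
Serpinb12, chr1:106934319-106934448, plus strand: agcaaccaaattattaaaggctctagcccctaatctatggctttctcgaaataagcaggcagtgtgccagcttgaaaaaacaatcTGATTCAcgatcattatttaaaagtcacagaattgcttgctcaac
TATAAA began 26 bases before the start in Krt10, 30 in Mt4 and 65 in Serpinb3a. TGANTCA began 45 bases before the start in Serpinb12, and a TATAAA 220 bases before it, outside the bases printed. Over 250 bases before all 32851 annotated starts, 12.4% of the windows held TATAAA and 6.75% held TGANTCA. A match is a run of letters and not a shown site. The windows of Them5 and Teddm3 held neither motif, and a second annotated start of Serpinb12 held no TGANTCA and a TATAAA 201 bases before it. Of the 50 windows of genes higher in both libraries, 8 held TGANTCA and 10 held TATAAA, and of the 119 windows of genes lower in both, also 8 and 10. With an entry for only 42 of the 55 higher and 87 of the 119 lower genes, a comparison of the sets is void, and nothing is read from these counts.

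The list for the spinous layer held 22 genes, of which 12 in the normal and 13 in the wounded library reached 100 UMIs. In each library 7 of these were higher, and 2 and 1 were lower, with median log2 ratios of 1.14 and 1.36. Krtdap, a secreted protein of differentiating keratinocytes (chromosome 7, 30787896 to 30791097, plus strand), stood at 6327 against 1764 CPM (1.84, 1.78 to 1.90) and at 5835 against 876 (2.74, 2.67 to 2.80). Dmkn, dermokine, had ratios of 1.87 and 1.71. Lypd3 and Ly6d, both surface proteins with a Ly6 domain, had 1.52 and 1.65, and 1.26 and 1.36. Sbsn, suprabasin, was 1.03 and 0.95, on either side of the limit. The normal call of Ly6d was lost with rich cells of 10 to 99 UMIs (0.89). Lgals7, a galectin of stratified epithelia, was abundant in both groups, at 14223 against 9172 CPM and 11734 against 6939.6, with ratios of 0.63 and 0.76. The exceptions were Cldn4, a claudin of tight junctions, with 54 against 186 UMIs and 31 against 235, and Serpinb2 in the normal library with -1.57. Against the low cells without the 4 genes, Cldn4 came to -0.21 and 0.11 and Serpinb2 to -0.27.

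Some late genes of keratinization were scarce in the rich cells. Lor, the gene of loricrin, had 1 UMI in all normal rich cells and 8 in the wounded ones. Flg, the gene of filaggrin, had 0 UMIs in the rich cells of both libraries, and Rptn, repetin, also 0. Flg2 had 0 and 7 UMIs, and Hrnr 1 and 0. The low cells held more of some of them, with 13 and 18 UMIs of Lor, 46 of Flg in the wounded and 16 of Rptn in the normal library, where 1 cell held 71.7% of the Flg and 62.5% of the Rptn UMIs. With 1743917 UMIs in the normal and 2491550 in the wounded rich cells, a count of 0 allows at most 3 UMIs. Other genes of the granular and envelope list were not as scarce. Asprv1 had 65 against 2 UMIs in rich and low cells of the normal library, and 146 against 71 in the wounded one. Ivl had 19 against 3 and 19 against 10. Spink5 stood at 281 against 251 CPM and 482 against 273, and Sprr1a at 421 against 551 and 355 against 450.

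Of 49 genes of the granular layer and cornified envelope, only 9 and 13 reached 100 UMIs, with medians of 0.16 and -0.34. In the normal library Sprr1b (1.85) and Sprr2f (at least 5.22) were higher and Cnfn (-3.40) lower. The ratio of Sprr1b was 0.18 with rich cells of 10 to 99 UMIs. None was higher in the wounded library and 6 were lower, among them Sprr2d (-7.85), Crct1 (-3.83) and Cnfn (-1.98). Low cells with a UMI of the 4 genes held all 3146 Sprr2d, 219 of 220 Crct1 and 742 of 743 Cnfn UMIs of the wounded low cells. Without those cells Sprr2d came to at least 1.87, Crct1 to 3.64 and Cnfn to 7.25 in the wounded library, and Cnfn to 5.33 in the normal one, where Crct1 and Cnfn rest on 1 low UMI each. These UMIs lay in few rich cells, 3 for Sprr2d, 1 for Crct1 and 6 for Cnfn in the wounded library and 13 for Cnfn in the normal one. Casp14, a protease of cornification, had 28 against 4 and 45 against 6 UMIs, both below the minimum. Members of the Sprr2 family are near-identical copies, and how reads are shared among them was not checked.

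Lipid genes of the barrier were mostly too scarce to compare, with 4 and 5 of 21 at 100 UMIs. Fabp5 was higher in both libraries and Abhd5, a cofactor of lipid hydrolysis, in the wounded one (1.14, or 0.95 with rich cells of 10 to 99 UMIs). Acer1, the alkaline ceramidase of differentiated keratinocytes, had 41 against 2 UMIs and 61 against 7 UMIs. Mgst1, a glutathione transferase also counted here as a marker of the anal gland, was higher in the normal library (1.71) and 0.89 in the wounded one.

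Of 27 proteases and protease inhibitors of the upper epidermis, 15 reached 100 UMIs in each library. In the normal library 7 were higher and none lower, and in the wounded one 5 were higher and 2 lower, with medians of 0.85 and 0.54. Both lower calls, of Cst6 and the membrane protease St14, were lost against the low cells without the 4 genes, with 0.40 and -0.37. Cst6 also came to 0.92 with low cells of like depth and to 0.21 without the top cell of each group. Klk8, a kallikrein, stood at 146 against 22.6 CPM and 175 against 42.4, ratios of 2.69 and 2.05. Stfa3, a stefin, had 1.83 and 1.12, and against the low cells without the 4 genes 1.56 and 0.84. Its ratios were 0.99 and 0.55 with rich cells of 10 to 99 UMIs. Klk13 was higher in the wounded library (2.56). Klk10 and Klk11 were higher in the normal library, with 1.19 and 1.21. The call of Klk10 was lost with 5 or more UMIs for rich cells (0.94) and under a rule on CPM in place of UMIs (0.40). Stefins and kallikreins are families of close copies, so single members are uncertain.

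Some genes of the basal layer were lower in rich cells, and others were within the limit. Of 25 genes of the basal layer and hemidesmosome, 18 and 20 reached 100 UMIs, of which 8 and 13 were lower and 1 was higher, with medians of -0.90 and -1.63. Krt15, a keratin of basal progenitors (chromosome 11, 100131758 to 100135928, minus strand), stood at 949.6 against 4318 CPM in the normal library (-2.18, -2.26 to -2.11) and at 230.4 against 2038 in the wounded library (-3.15, -3.27 to -3.02). Col17a1, the hemidesmosomal collagen, had -1.37 and -1.86. Its partner integrin chain Itgb4 had -2.08 and -2.19, and Lamb3, a chain of laminin 332, had -2.44 and -3.08. Dlk2, a Notch-related membrane protein, had -2.62 and -4.76, and Igfbp3 -2.14 and -2.60. Each of these was called lower in both libraries, but the normal call of Col17a1 was lost with rich cells of 10 to 99 UMIs (-0.71). Sparc, a matrix protein, is counted among the lower basal genes, with -2.39 and -2.12, and is also 1 of the 7 fibroblast markers, whose sum was 29.8 against 93.1 CPM and 41.3 against 219.

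The main basal keratins went with this only in part. Krt5 was lower by less than the 2-fold limit, with 2896 against 4503 CPM (-0.64, -0.69 to -0.58) and 1942 against 3380.2 (-0.80, -0.85 to -0.75). Krt14 (chromosome 11, 100203162 to 100207548, minus strand) was nearly equal, with 11177 against 11605 CPM (-0.05, -0.08 to -0.02) and 7938 against 8340.3 (-0.07, -0.10 to -0.04). Trp63, the transcription factor p63, was also within the limit at -0.54 and -0.89. Igfbp2, an insulin-like growth factor binding protein, was the basal list's exception, with 1.79 and 1.11, or 0.85 in the wounded library against the low cells without the 4 genes. With rich cells of 10 to 99 UMIs its call was lost in both libraries, with 0.65 and 0.60.

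Steps of Krt1 and Krt10 sum showed where these changes lay. Rich cells were parted into classes of 10 to 29 UMIs (46 normal and 55 wounded cells), 30 to 99 (37 and 68), 100 to under 300 (26 and 56) and 300 or more (19 and 19). Krt14 went from 14500.0 CPM in the lowest to 6226 in the highest class of the normal library, and from 11687 to 2057 in the wounded one. Krt5 went from 4542 to 738 and from 3529.5 to 214. Krt15 went from 2331 to 10.6 CPM and from 669 to 2.89. The equal overall level of Krt14 therefore joined a higher level in the first class with a lower one in the last.

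Levels of Fabp5 and of Mt4, Calm4 and Krtdap of the spinous list were higher with each step. Sbsn of the same list was not, with 169, 299.8, 243 and 199 CPM in the 4 classes of the normal library. Fabp5 went from 1555 to 16813 CPM in the normal and from 6749 to 27532 in the wounded library. Mt4 went from 95.04 to 3944 and from 152 to 5077. Calm4 went from 690.4 to 6536 and from 997 to 7553. Serpinb3a was mostly a gene of the last class, with 1102 CPM in the normal and 642 in the wounded library, against 0 and 18.1 in the first. Krtdap went from 3787 to 9495 and from 2433 to 12413. The classes differ in depth, with medians of 9579 to 20196 UMIs in the normal and 9444 to 18338 in the wounded library, since a sum of UMIs defines them.

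**Figure D4:**
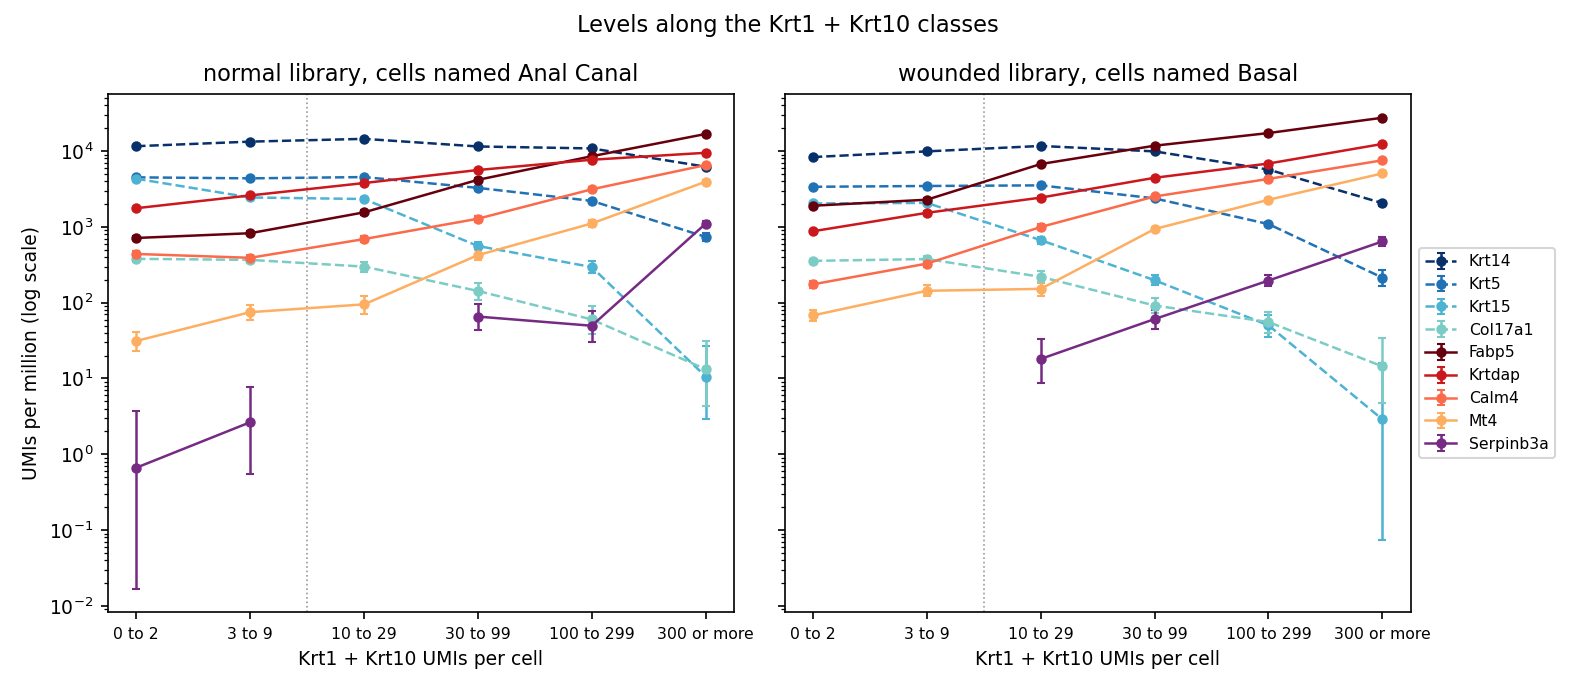
Levels of 9 genes (vertical, CPM, log scale) in 6 classes of cells by their UMIs of Krt1 and Krt10 together (horizontal), with exact 95% Poisson intervals for counting error. Dashed lines are basal genes, full lines differentiation genes, the dotted vertical line parts rich cells (right) from the others, and levels of 0 are not drawn. Krt15 goes from 2331 to 10.6 and Mt4 from 95.04 to 3944 CPM from the first to the last rich class of the normal library.

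The partners were not balanced at the start of the steps. Krt1 made up 77.1% (74.0 to 79.9) of the sum of both in the normal cells with 10 to 29 UMIs, and 43.2%, 48.2% and 50.5% in the next classes. In the wounded library the shares were 70.9% (68.1 to 73.7), 58.4%, 55.1% and 51.3%. In the first class Krt1 exceeded Krt10 in 37 of 46 and 39 of 55 cells. Among the cells with 3 to 9 UMIs, which the rule left out, the Krt1 shares were 70.0% and 83.6%. In the low cells, with 0 to 2 UMIs each, they were 51.0% (42.7 to 59.2) and 60.5% (53.1 to 67.6). In the normal library the excess of Krt1 was seen in the classes of 3 to 9 and 10 to 29 UMIs. The wounded library had more Krt1 than Krt10 in each class, with the smallest excess in the last.

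Genes of dividing cells were seen least in the top class. After thinning, a UMI of Mki67 or Top2a was found in 8.89%, 17.1% and 8.0% of normal cells in the first 3 rich classes, and in 25.5%, 22.1% and 7.14% of the wounded ones. In the low cells it was found in 19.3% and 27.5%, so the first wounded class was close to them. In the cells with 3 to 9 UMIs it was found in 22.8% and 35.6%, the highest share of each library. It was found in 0 of 19 cells in the last class of each library, with an upper limit of 17.6% from the exact interval. Before thinning it was found in 5 and 2 of those 19 cells. Over all rich cells, 4 of 23 cell cycle genes in the normal and 17 of 22 in the wounded library were lower and none higher, with medians of -0.46 and -1.22. With rich cells of 10 to 99 UMIs 3 of the 4 and 14 of the 17 calls were lost. Mki67 had -0.39 (-0.80 to 0.03) in the normal and -1.10 in the wounded library, or -0.52 there with rich cells of 10 to 99 UMIs. Ccnd2, cyclin D2, was lower in both, with -1.78 and -1.58.

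Desmosome genes that reached 100 UMIs mostly stayed within the limit, with medians of 0.48 over 8 and 0.73 over 9 genes. None of the 8 was called in the normal library. In the wounded library Dsc2 (1.12) and Perp (1.00), a junction protein under p63, were higher and Dsg2 (-1.60) was lower. Each of these calls was lost in an alternative: with 5 or more UMIs for rich cells Dsc2 was at 0.99 and Perp at 0.89, and with rich cells of 10 to 99 UMIs Dsg2 was at -0.91. Dsp, desmoplakin, had 0.79 and 0.72. Dsg1a, the desmoglein of upper layers, did not reach 100 UMIs but had 88 against 7 and 86 against 13. Also below that minimum, Dsc1 had 25 against 0 and 90 against 5, and Dsg1b 7 against 1 and 37 against 3. Dsg2, below it in the normal library, went the other way there with 30 against 67.

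In the Notch pathway the ligand Jag2 was lower and the target Nrarp higher in both libraries, and the receptor Notch3 was higher in the wounded one. Jag2, a ligand of basal cells, was lower, with 39 against 142 UMIs (-2.08, -2.63 to -1.56) and 31 against 198 (-2.81, -3.41 to -2.26). Dll1, another ligand, had 1 against 19 and 0 against 20 UMIs. Notch3, a receptor of suprabasal cells, had 98 against 14 UMIs in the wounded library (2.67, 1.86 to 3.59) and 52 against 14 in the normal one, below the minimum. Nrarp, a target and feedback inhibitor, was higher with 1.74 and 2.21, while Hes1, another target, had -0.54 and -0.14. The receptor Notch1 (-0.15 and -0.02) and the ligand Jag1 (-0.14 and 0.36) were near 0. Of 20 pathway genes only 5 and 6 reached 100 UMIs, with 1 and 2 higher and 1 lower in each library. These are too few to set against the 2.09% and 2.33% higher and 4.71% and 7.39% lower of all genes.

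Among 32 transcription factors of keratinocytes, 17 and 25 reached 100 UMIs, with medians of 0.22 and 0.31. Of these 1 and 4 were lower, beside 4.71% and 7.39% of all genes compared, so the normal count lay near that share. Cebpa (0.73 and 1.43) and Grhl1 (0.97 and 1.41) were called higher in the wounded library, the latter on 41 and 18 UMIs in the normal one. With rich cells of 10 to 99 UMIs Cebpa was at 0.92 in the wounded library. Klf4, a factor of barrier formation, was within the limit at 0.30 and 0.32. Elf3, an epithelial factor, was lower with -2.34 and -3.54, and against the low cells without the 4 genes it came to -0.07 and 0.36. Id1 and Id3, inhibitors of differentiation factors, were lower in the wounded library, with -1.20 and -1.47. The call of Id1 was lost with rich cells of 10 to 99 UMIs (-0.91), as a mean of per-cell values (-0.79) and against the low cells without the 4 genes (-0.79).

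Krt17, whose promoter drives the Cre of these mice, was lower in rich cells. It stood at 330.3 against 1057 CPM in the normal library (-1.68, -1.82 to -1.54) and at 116 against 730.3 in the wounded one (-2.66, -2.85 to -2.48). Without the low cells with the 4 genes these were -1.40 and -1.38. The reporter ZsGreen1 was among the features of the normal library only. It had 6 UMIs in the 128 rich cells, 3.44 CPM (1.26 to 7.49), and 9 UMIs in the 210 low cells, 5.99 CPM (2.74 to 11.4). It had 13 UMIs in the cells named Basal and 0 in the 63 cells named Rectum, and these counts did not part the groups.

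Stress and mucosal keratins depended on which low cells were used. Krt6a, a keratin of hyperproliferation, had -0.84 and -0.79 against all low cells, and 0.51 and 1.34 against those without the 4 genes. Krt13 had -0.36 and -0.12, and then 1.58 and 1.81. Krt4 had 0.20 and 1.24, and then 1.91 and 3.40. The second values follow from leaving out low cells rich in both mucosal keratins, while the 14 and 7 rich cells with a UMI of the 4 genes were kept, so they do not show that rich cells were higher than low cells as a whole. Of the whole list of 12 such keratins, 6 and 7 reached 100 UMIs, with 0 and 1 higher and 1 and 2 lower. Reads of Krt6a and of its close copy Krt6b cannot be told apart with certainty here.

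S100, antimicrobial and wound genes were split, with 3 higher and 3 lower of 11 in each library. Among the lower ones Hbegf came to -0.82 and 0.29 and the wounded S100a10 to -0.83 against the low cells without the 4 genes. S100a6 was lower, with 6769.8 against 13569.7 CPM (-1.0032) and 1932 against 8649 (-2.16). The normal ratio lay at the limit, and the call was lost in 6 alternatives, with -0.50 for rich cells of 10 to 99 UMIs and -0.89 against the low cells without the 4 genes. S100a9 and S100a8, which form calprotectin, were higher, with 4.20 and 2.70 in the normal and 3.06 and 1.45 in the wounded library. They were found in few cells, 17 and 22 rich cells for S100a9, and 1 cell held 33.6% and 34.1% of its UMIs. In rich cells with 10 to 99 UMIs of Krt1 and Krt10 the ratios of S100a8 were -1.93 and -0.64. Il1f9, an interleukin 36 cytokine, was higher with 2.23 and 1.27, the latter 0.54 with rich cells of 10 to 99 UMIs and 0.74 as a mean of per-cell values. Of the immediate-early genes, which respond to stress and cell isolation, none was higher, and 3 of 13 and 2 of 11 were lower. The shares lower over all genes were 4.71% and 7.39%. Against the low cells without the 4 genes the normal call of Dusp1 (-0.75) and the wounded calls of Junb (-0.17) and Ier3 (-0.53) were lost. Of the posterior Hox genes 0 of 2 and 1 of 3 were lower and none higher, too few to set against those shares. In the list of the upper hair follicle and duct, 1 of 6 genes was higher in each library, Defb6, and 1 and 4 were lower. Few cells set 2 of the 4 lower calls in the wounded library. Without the top cell of each group the wounded Cst6 went from -2.74 to 0.21 and Krt79 from -1.17 to 0.27. Both were also above 0 against low cells of like depth and against those without the 4 genes. The wounded Plet1 went from -4.38 to -0.78 against the low cells without the 4 genes. With rich cells of 10 to 99 UMIs the wounded Defb6 was at -0.996.

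Among the genes most lower, Ltf, lactotransferrin, had 3 against 775 UMIs (-8.23) and 1 against 2720 (-11.55). Psca had -6.08 and -6.10, Ppbp, a chemokine, -6.22 and -8.62, and Cxcl5 -4.02 and -10.52. Prss27, a serine protease, had -6.13 and -5.81, and Plac8 -4.19 and -3.95. Against the low cells without the 4 genes, Plac8 and Aldh1a3 were within the limit in the normal library, with -0.22 and -0.46. In the wounded library the sign turned, with 1.40 for Plac8, 1.43 for Aldh1a3, on few low UMIs, and at least 1.55 for Prss27. Rich cells with a UMI of the 4 genes were kept, so these values do not set rich cells against all low cells. Igkc, Jchain and Igha, antibody genes of plasma cells, were lower in the normal library, with -6.33, -4.97 and -4.75, but 1 low cell held 97.3%, 98.5% and 95.7% of their UMIs in the low group.

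**Figure D5:**
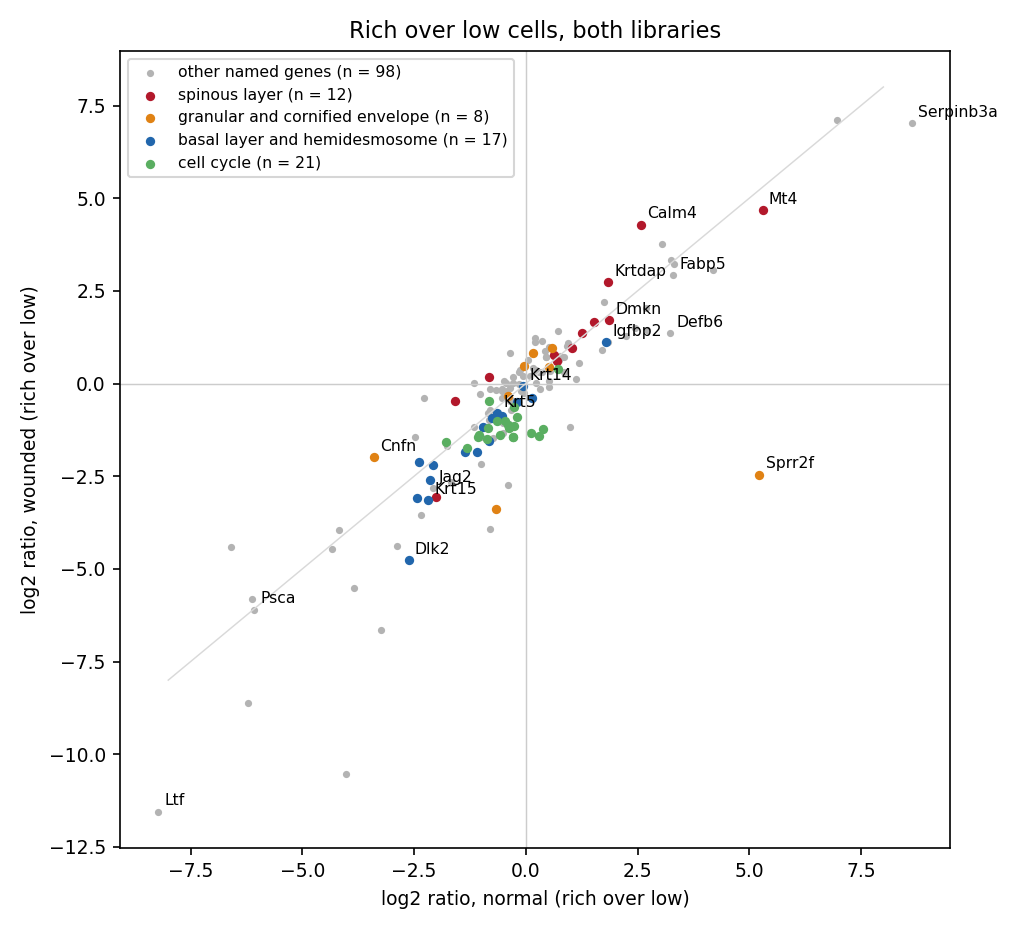
Log2 ratio of rich over low cells in the normal (horizontal) and the wounded library (vertical) for the named genes with 100 or more UMIs in both, without Krt1 and Krt10. Colours mark 4 gene lists, grey points are other genes and the diagonal is equal ratios. Most genes of the spinous list lie to the upper right and most of the basal list, other than Igfbp2, to the lower left, with Krt14 near 0, and Sprr2f at 5.22 and -2.46.

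The 13 rectal markers summed to 290.2 CPM in the normal and 315 in the wounded rich cells, against 1005 and 1133 in the low cells, and Epcam was the most abundant with 159 and 172. The lower calls of Epcam (-1.16 and -1.17) and of Krt19 in the wounded library (-5.51) were lost against the low cells without the 4 genes, with -0.98, -0.50 and -0.45. Among the rectal markers Car1, Cdx1, Cdx2 and Vil1 were at 0 in the normal rich cells, and Cdx2 in the wounded ones. The 7 fibroblast markers summed to 52 and 103 UMIs in the rich cells (29.8 and 41.3 CPM), the most abundant being Dcn and Sparc, against 93.1 and 219 CPM in the low cells. They were thus lower in rich cells along with some of the basal genes, and their part in the basal ratios was not tested. The study's sort excluded cells with PDGFRa, whose gene is among these fibroblast markers. The 8 hair follicle markers summed to 38 and 35 UMIs (21.8 and 14.05 CPM, against 73.8 and 76.8 in the low cells), mostly Sox9, and Lhx2 was at 0 in the normal cells. Immune markers summed to 20 and 3 UMIs, of melanocytes to 2 and 3, of endothelium to 6 and 4 and of muscle to 14 and 16. The anal gland list came to 389 and 299.8 CPM, against 168 and 240.5 in the low cells, but 549 of its 678 and 513 of its 747 UMIs were Mgst1.

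The 2 libraries were also set side by side, with the same comparison in the low cells beside it, since library and wound cannot be told apart. Of 4158 genes with 100 or more UMIs in the rich cells of both together, 250 (6.01%) were at least 2-fold higher in the wounded and 312 (7.5%) in the normal rich cells, with a median of -0.15. Many of the largest ratios were much the same in the low cells: Rps12, a ribosomal protein gene, had 5.59 in rich and 5.78 in low cells, and Atp6v0c, a subunit of the proton pump, had 0 UMIs in both groups of the normal library. Calcb, a calcitonin-related peptide gene, was an exception with -3.86 in rich and -1.27 in low cells. The libraries were counted with different versions of the pipeline and 31054 against 32285 features, whose part in these ratios was not tested.

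For the genes described above, many ratios between libraries were shared by the low cells. Krt14 had -0.49 in rich and -0.48 in low cells, Krt6a -1.08 and -1.13, Fabp5 1.05 and 1.41, and Dsg3, a desmoglein, 2.05 and 1.59. In the low cells without the 4 genes Krt6a stood at 857 CPM in the normal and 229 in the wounded library, a larger ratio than in all low cells. Krt17 had -1.51 (-1.72 to -1.31) in rich and -0.53 (-0.63 to -0.43) in low cells. This gap was not seen against the low cells without the 4 genes, in which Krt17 stood at 875 and 302 CPM, nearly the same ratio as the 330.3 and 116 of the rich cells. Krt15 had -2.04 (-2.18 to -1.91) in rich and -1.08 (-1.14 to -1.03) in low cells, and 3982 and 2179 CPM in the low cells without the 4 genes. Krtdap was nearly equal between the rich cells (-0.12), and lower in the wounded than in the normal low cells (-1.01). Whether these differences between groups exceed the spread of mice was not tested.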

How the data were processed

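The deposited counts are whole UMIs of each gene in each cell barcode, made by the authors from 10x Genomics 3′ libraries with Cell Ranger (3.1.0 in the submitters' notes, 3.1.0 for the normal and 4.0.0 for the wounded library per the file headers) on mm10, and analysed with Seurat 3.2.2. The second deposited file of each library holds the authors' cells after their filters, as natural log values of 1 plus a whole number, with a name for each cell, and only its barcodes and names were used. The authors had removed clusters of other cell types. Library totals were 17617944 UMIs over 2564 barcodes and 88260050 over 17216.

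UMIs of rich and of low cells were summed within a library and compared as log2 ratios of CPM with exact binomial intervals, for genes with 100 or more UMIs in both groups together. PCR copies are merged by UMI, and intervals cover counting error only. A group at 0 was set to a floor of 3 UMIs, and the ratio given as a bound. Named genes were Krt1, Krt10, the 10 highest and 10 lowest ratios of each library, members of the gene lists, Krt17, ZsGreen1 and genes the study names for these clusters. The few others, Ltf, Ppbp, Psca and Cxcl5 as a group and genes leading between libraries, were picked after their values were seen. The members and lists were chosen with earlier results of these data known. Scrublet (scanpy 1.11.5) called 2 of 939 and 0 of 4147 cells, too few to use, so no doublet was removed, and leaving out the 6% with the highest scores was an alternative. The highest scores fell on 11.7% of rich and 2.38% of low cells in the normal library, and on 5.56% and 2.92% in the wounded one. Some results are not reported here. The steps were tested on simulated data. Python 3.11.15, numpy 2.4.6, scipy 1.17.1, pandas 2.3.3 and matplotlib 3.10.9 were used. Gene positions follow GENCODE on GRCm38.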

Additional observations from a re-analysis of the deposited data

Results flagged for a closer look

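Sprr2f, a small proline-rich protein of the cornified envelope, differed in opposite directions in the libraries. Its log2 ratio of rich over low cells was at least 5.22 in the normal library, with 130 UMIs in rich and 0 in low cells, and -2.46 in the wounded library, with 68 against 340. Against the low cells without a UMI of Ltf, Ppbp, Psca or Cxcl5, the wounded ratio was at least 4.06. That choice was made after seeing the data and kept the rich cells with such a UMI. The value therefore does not show that the libraries agree in direction. The difference between the libraries was not tested. The UMIs lay in few cells: 1 of 6 normal rich cells held 66.9% and 1 of 7 wounded rich cells 67.6% of them, and 1 wounded low cell held 61.8% of those of its group. Sprr2 genes are near-identical copies.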

How the results depend on the processing

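With 1 library for each condition, depth limits the counting intervals and nothing measures the spread between mice. No paired analysis was possible because the groups hold 1 library each and no test was run. Leaving out the low cells with Ltf, Ppbp, Psca or Cxcl5, splitting the rich cells at 100 UMIs and leaving out the top cell were chosen after seeing the data. With a minimum of 50 UMIs a gene, 136 genes were higher and 369 lower in the normal library, and 184 and 709 in the wounded one. With 300 these were 40 and 53, and 47 and 115. Rich cells with 10 to 99 UMIs gave 31 higher and 92 lower genes, and 59 and 196. Rich cells with 100 or more UMIs gave 99 higher and 265 lower genes in the normal library, and 127 and 447 in the wounded one. Under 10% mitochondrial UMIs, 123 wounded rich cells were left. Of 171 calls of named genes, 38 were lost against the low cells without the 4 genes, 45 with rich cells of 10 to 99 UMIs, 27 with 5 or more UMIs and 14 with low cells of like depth. Signs turned for some genes. Without the low cells with the 4 genes, the normal log2 ratios were 5.33 for Cnfn and 0.42 for Krt20. In the wounded library they were 1.43 for Aldh1a3, 0.14 for Clca3b, 0.11 for Cldn4, 7.25 for Cnfn, 3.64 for Crct1, 0.40 for Cst6, 0.36 for Elf3, 0.29 for Hbegf, 0.70 for Hopx, 1.41 for Krt79, 1.40 for Plac8, 1.55 for Prss27, 1.87 for Sprr2d and 4.06 for Sprr2f, where Prss27, Sprr2d and Sprr2f are lower bounds and Aldh1a3, Clca3b, Cnfn and Crct1 rest on 1 to 3 low UMIs. With rich cells of 10 to 99 UMIs, Defb6 had -1.25 in the normal and -0.996 in the wounded library, S100a8 -1.93 and -0.64, and Stfa1 -0.23 in the normal one. Without the top cell of each group Defb6 had -0.83 and Jchain 0.79 in the normal library, and Cst6 0.21 and Krt79 0.27 in the wounded one. With low cells of like depth Jchain had 1.59, Cst6 0.92 and Krt79 1.30. Without the highest doublet scores Jchain had 0.93. Where a gene's UMIs lay mostly in 1 cell, leaving that cell out set the change by construction, and for the other genes the cause was not tested.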
